A study of Mus musculus with 6 samples.

Results

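The proteasome genes of mouse liver were examined after lipopolysaccharide (LPS), the endotoxin of Gram-negative bacteria. The genes were chosen by name: every gene line whose symbol was Psma, Psmb, Psmc, Psmd, Psme, Psmf or Psmg followed only by digits, which gave 48 of 22488 gene lines. RNA of whole livers was sequenced from an LPS group (n = 3 libraries) and a control group (n = 3 libraries). The LPS group received 6 mg/kg LPS and the control group 200 µl of the salt buffer HBSS, both into the abdominal cavity. In another label field the control samples stand as having had no treatment. All mice were male wild-type C57BL/6, 6 to 8 weeks old, kept at 25 °C and fasted for 16 h. The sample titles number the libraries of each group as repeat experiments, and they are called replicates here. Not given in the sources used here are the time from injection to sampling and whether each library came from its own mouse. The p-values therefore reflect the spread among 6 libraries, which may be technical.

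The proteasome is the barrel-shaped protease that degrades ubiquitin-tagged proteins in the cytosol and nucleus. Its core is a stack of alpha and beta rings, in which 3 of the beta subunits carry the active sites, and its ends are closed or opened by a regulatory cap or by activator rings. In cells exposed to interferon gamma, and in many blood cells at rest, the active subunits Psmb5, Psmb6 and Psmb7 are replaced in newly built cores by Psmb8, Psmb9 and Psmb10. Such an immunoproteasome favours peptides that bind class I major histocompatibility molecules.

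Total counts ran from 11488525 to 15437785 in LPS libraries and from 12577993 to 20282004 in control libraries, and the members took 0.3625% to 0.4255% of the counts in LPS libraries and 0.4065% to 0.4149% in control libraries. Levels are given as CPM (read counts scaled to a common library size) after TMM scaling, with mean ± SD over n = 3 libraries per group. Each log2 fold change is the LPS level minus the control level, and SE is its standard error. A gene is said to have risen or fallen where its adjusted p from edgeR's quasi-likelihood test, with Benjamini-Hochberg adjustment over all 12078 genes tested, was at or under 0.05. Counting error alone sets the limits given for genes without counts. The 8 hepatocyte markers summed to 68626 to 94385 CPM in LPS livers and 108440 to 121074 CPM in control livers. Most of each sum was Alb, with a mean of 54469 CPM in LPS livers and 79341 CPM in control livers.

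Of the 48 members, 46 passed the filter on low counts, of which 11 rose, 9 fell and 26 did not pass the threshold. Among all genes tested, 31.3% rose and 31% fell, so that the share of members that rose (23.9%) or fell (19.6%) was below the background in both directions. With a change of at least 1.5-fold required as well, 7 members rose and 6 fell, beside 25.9% and 26.1% of all genes tested. The CPM of the LPS and control libraries did not overlap for 26 of the 46 tested members (56.5%). The same held for 67.4% of all genes tested, so a lack of overlap was common in these data. The 3 immune catalytic subunits, Psmg1, Psmd10 and Psme4 had the largest changes, while most subunits of the constitutive 26S particle kept within a narrow range.

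**Figure D1:**
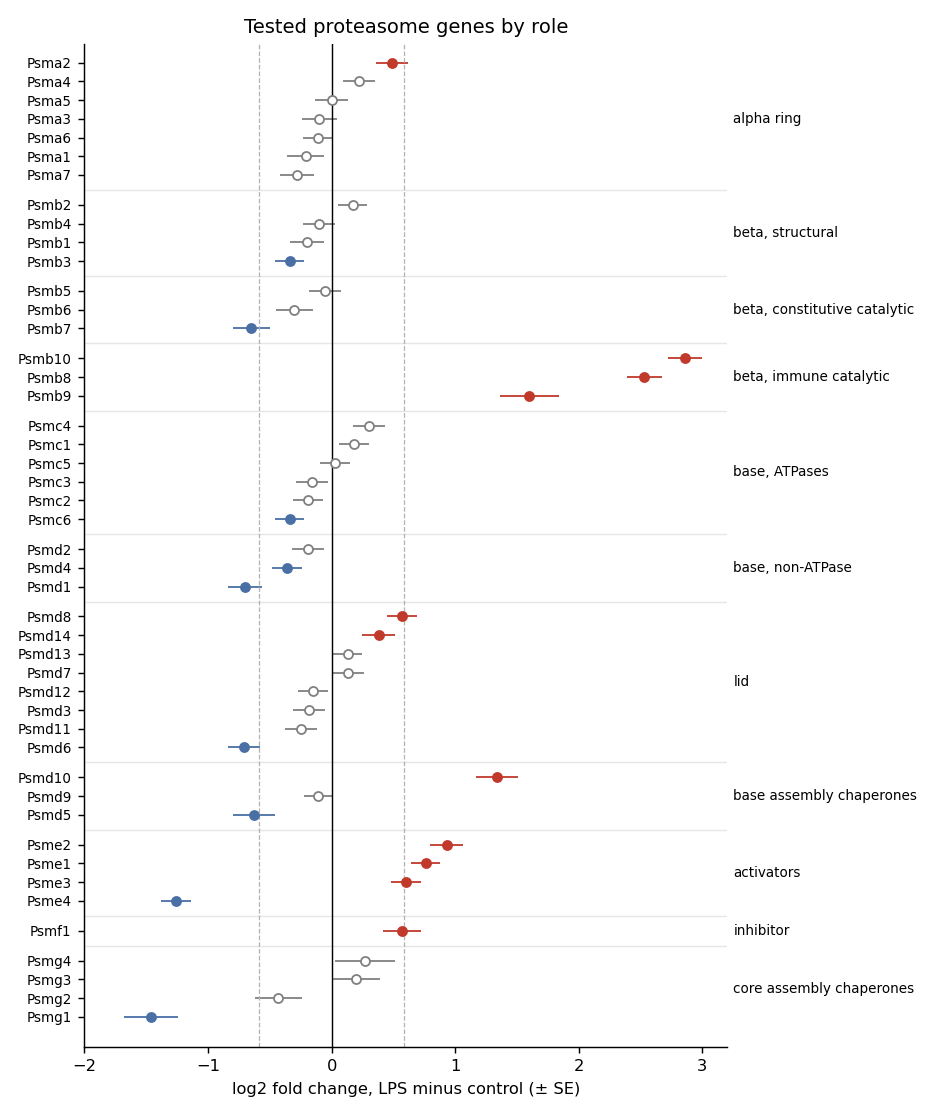
Log2 fold change (LPS minus control, ± SE) of the 46 tested members, ordered by role, with filled red points for genes that rose, filled blue points for genes that fell, open points for genes that did not pass the threshold, and dashed lines at 1.5-fold. The immune catalytic subunits lie furthest to the right at 1.60 to 2.86, and Psmg1 (-1.46) and Psme4 (-1.26) lie furthest to the left.

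The 3 immune catalytic subunits rose together. Psmb8 replaces Psmb5, which carries the chymotrypsin-like site, and lies at chr17:34197721-34201454 (GRCm38, plus strand). It reached 66.3, 56.5 and 67.7 CPM in LPS livers, against 11.2, 9.78 and 12.1 CPM in control livers. The groups did not overlap, and the lowest LPS library was far above the highest control library. Its log2 fold change was 2.53 (SE 0.14, adjusted p = 3.695e-09), a 5.77-fold rise. Because whole tissue was sequenced, a change in the number of cells of a type and a change in RNA per cell cannot be told apart, for this and for every gene that follows.

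Psmb10, which replaces the trypsin-like subunit Psmb7, had the largest change of all members (chr8:105935735-105938444, minus strand). Its level was 116, 107 and 121 CPM in LPS livers, against 18.1, 14.4 and 15.1 CPM in control livers, with no overlap. The log2 fold change was 2.86 (SE 0.14, adjusted p = 9.817e-10), or 7.27-fold.

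Psmb9, which replaces the caspase-like subunit Psmb6, lies head to head with the peptide transporter gene Tap1 in the class II region of the histocompatibility complex (chr17:34181987-34187764, minus strand). It had 25.9, 18.8 and 31.0 CPM in LPS livers, against 11.2, 5.64 and 8.47 CPM in control livers. These libraries varied more than those of the other immune subunits, yet the groups did not overlap. The log2 fold change was 1.60 (SE 0.24, adjusted p = 6.567e-05), a 3.03-fold rise. Psmb9 and Tap1 overlap on opposite strands, Psmb8 overlaps the antisense gene Gm20496 and Psmb10 the antisense gene Gm16156. The strand setting of the counting is not given in the sources used here, so reads of such neighbours cannot be told apart.

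The constitutive partners did not rise. Psmb5 had 60.9, 47.5 and 63.3 CPM in LPS livers, against 63.2, 55.5 and 59.3 CPM in control livers. The groups overlapped, and the log2 fold change was -0.05 (SE 0.13, adjusted p = 0.7555, edgeR). Psmb6 had 101, 71.0 and 103 CPM in LPS livers, against 116, 114 and 108 CPM in control livers. Its LPS libraries all lay below its control libraries, but the log2 fold change of -0.30 (SE 0.15) did not pass the threshold (adjusted p = 0.09237, edgeR). It passed with library totals as the scaling (-0.37), without the filter on low counts (-0.33) or without LPS replicate 3 (-0.38). Psmb7, the partner of Psmb10, fell: it had 38.6, 25.5 and 32.0 CPM in LPS livers and 51.4, 52.2 and 46.4 CPM in control livers. Its log2 fold change was -0.65 (SE 0.15, adjusted p = 0.001906), and the groups did not overlap. Psmb7 overlaps Nek6 on the opposite strand.

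**Figure D2:**
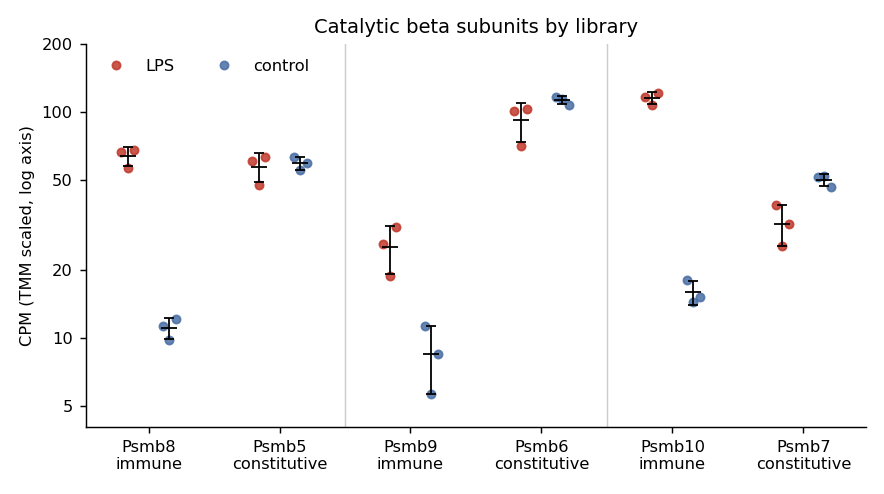
TMM-scaled CPM on a log axis for each catalytic beta subunit, with points for libraries and bars for mean ± SD (n = 3 per group), each immune subunit left of the constitutive subunit it replaces. Each immune subunit is higher in all LPS libraries than in any control library, while Psmb7 is lower and the groups of Psmb5 overlap.

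The ratio of an immune subunit to its partner within a library does not depend on scaling. The log2 ratio of Psmb8 to Psmb5 counts was 0.12, 0.25 and 0.10 in LPS livers, against -2.49, -2.51 and -2.30 in control livers. The difference of 2.59 is 6.01-fold and exceeded the spread within either group. For Psmb9 over Psmb6 the log2 ratio was -1.97, -1.91 and -1.74 in LPS livers, against -3.37, -4.34 and -3.67 in control livers, a difference of 1.92, or 3.79-fold. For Psmb10 over Psmb7 it was 1.59, 2.08 and 1.92 in LPS livers, against -1.51, -1.86 and -1.62 in control livers, a difference of 3.53, or 11.5-fold. In each of the 3 pairs, every LPS library was above every control library. The exact permutation test, 2-sided, gave p = 0.1 for each ratio, the smallest that 3 against 3 samples allow, and 0.1 after Benjamini-Hochberg adjustment over 4 ratios.

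Divided by transcript length, the transcripts of the immune subunit made up a larger share of each pair in LPS livers. Psmb10 made up 72.8%, 78.9% and 77.0% of the Psmb10 and Psmb7 transcripts in LPS livers, against 23.8%, 19.6% and 22.3% in control livers. Psmb8 made up 37.5%, 39.6% and 37.1% of its pair in LPS livers, against 8.93%, 8.87% and 10.1% in control livers. For Psmb9 the share was 13.1%, 13.6% and 15.1% in LPS livers, against 5.39%, 2.83% and 4.44% in control livers. In LPS livers the immune transcript was thus the more abundant of its pair for Psmb10, and the less abundant for Psmb8 and Psmb9.

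**Figure D3:**
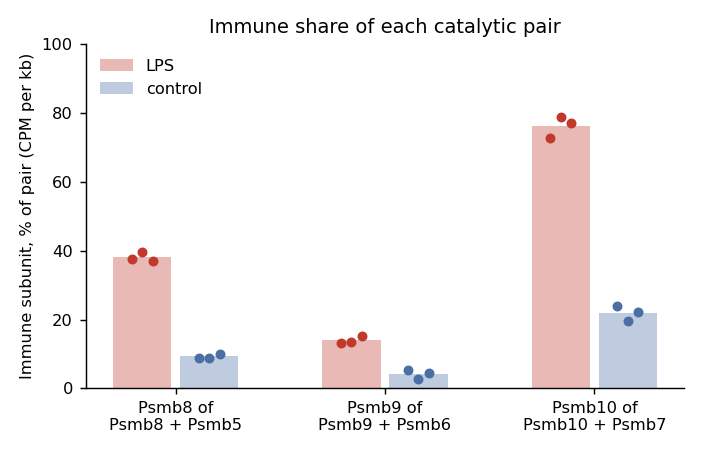
Share of the immune subunit in the summed length-scaled level (CPM per kb of the principal transcript) of each immune and constitutive pair, with bars for the group mean and points for libraries (n = 3 per group). In LPS livers Psmb10 was at 72.8% to 78.9% of its pair, and Psmb9 at 13.1% to 15.1%.

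To show the promoter letters of these pairs, stretches upstream of the RefSeq starts (GRCm38.p6) are given 5′ to 3′ on the gene's strand, with motif matches in capitals. Of the 48 members, 40 had a promoter window of 300 bases (250 before to 50 after the start), 43 windows in all. Of the 150 bases before the start, those in annotated exons are left out for Psmb10 (52 bases) and Psmb5 (27 bases). Psmb6 has no such bases and is shown in full. The 150 bases before the start lie wholly in annotated exons for Psmb8 and Psmb9, so for Psmb8 only 30 bases around its match are shown (-107 to -78), exonic though they are, and for Psmb9, which has no match there, none.
Psmb8 (chr17:34198088-34198117, plus strand): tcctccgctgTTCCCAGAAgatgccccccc
Psmb10 (chr8:105938445-105938542, minus strand): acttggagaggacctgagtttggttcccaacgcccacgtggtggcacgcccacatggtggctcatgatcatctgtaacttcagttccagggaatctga
Psmb5 (chr14:54618023-54618145, minus strand): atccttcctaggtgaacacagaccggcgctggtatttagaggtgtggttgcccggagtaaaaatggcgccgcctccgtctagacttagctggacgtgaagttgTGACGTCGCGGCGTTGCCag
Psmb6 (chr11:70525207-70525356, plus strand): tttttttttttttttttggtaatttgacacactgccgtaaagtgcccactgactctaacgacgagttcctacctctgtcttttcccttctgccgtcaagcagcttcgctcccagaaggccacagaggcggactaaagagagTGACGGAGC

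The capitals in Psmb8 match TTCNNNGAA, the palindrome of gamma-activated sites in interferon-responsive genes, first base at -97. Those letters stood in 3 of the 43 member windows (Psmb8, Psmd2 and Psmg1) and in 8.3% of 32851 mouse windows, both strands searched. The capitals in Psmb5 (first base at -47) and Psmb6 (at -9) begin with a match to TGACNNNGC, the core of the antioxidant response element that NRF1 and NRF2 are known to bind. It stood in 6 of 43 member windows (Psmb5, Psmb6, Psmc6, Psmd12, Psmd9 and Psme4) and in 12.4% of all windows. In Psmb5 the capitals run on, with no shared base, into a match to GGNNTTNCC, a kB-like pattern, at -38. That pattern stood in 5 of 43 member windows and 16% of all windows. GAAANNGAA, the repeat of interferon response elements, stood in 7 of 43 member windows, none of them of the 3 immune subunits, and in 8.56% of all windows. Psmb10 matched none of the 4 patterns in its window. These matches describe letters in a window of this size.

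The 4 activators can cap the core in place of the regulatory particle. Of them, 3 rose and 1 fell, beside 31.3% and 31% of all genes tested. Psme1 and Psme2 form the hetero-oligomeric ring known to be induced by interferon gamma and to aid peptide production. Psme1 had 137, 129 and 143 CPM in LPS livers, against 79.0, 84.9 and 78.4 CPM in control livers (log2 fold change 0.76, SE 0.12, adjusted p = 6.716e-05). Psme2 had 71.6, 65.8 and 71.4 CPM in LPS livers, against 43.4, 34.0 and 32.6 CPM in control livers (log2 fold change 0.93, SE 0.13, adjusted p = 4.345e-05). Both rose, and neither gene's groups overlapped. The near-identical copy Psme2b had 20.04, 16.1 and 17.3 CPM in LPS livers, against 9.36, 9.73 and 8.34 CPM in control livers, and Psme1 overlaps Emc9 on the opposite strand, so part of these reads is of uncertain origin.

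Psme3 forms a separate activator ring found in the nucleus. It had 84.9, 81.4 and 88.3 CPM in LPS livers, against 51.6, 56.6 and 59.6 CPM in control livers (log2 fold change 0.60, SE 0.12, adjusted p = 5.493e-04). It rose, and its groups did not overlap. The log2 ratio of summed Psme1 and Psme2 counts to Psme3 counts was 1.30, 1.26 and 1.28 in LPS livers, against 1.25, 1.07 and 0.90 in control livers. Highest control and lowest LPS library lay close together, and the difference of 0.21 had p = 0.1 (exact permutation test).

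Psme4 moved the other way. It encodes the large monomeric activator PA200, known for a role in histone turnover during spermatogenesis and DNA repair, and lies at chr11:30771726-30880361 (plus strand). It had 70.5, 82.8 and 73.9 CPM in LPS livers, against 176, 188 and 181 CPM in control livers. Its mean fell to 75.7 ± 6.37 CPM in LPS livers, against 182 ± 5.89 CPM in control livers (n = 3 each). The log2 fold change was -1.26 (SE 0.12, adjusted p = 7.39e-07), the clearest fall by adjusted p among the members, and the groups were far apart. Per kb of transcript, Psme4 had 11.7 CPM in LPS livers and 27.98 CPM in control livers, while Psme1 had 123 CPM in LPS livers and 72.6 CPM in control livers. Psme2 had 72.4 CPM per kb in LPS livers and 38.1 in control livers, and Psme3 had 31.9 and 21.0. Not scaled for length, the 4 activators summed to 367 ± 9.01 CPM in LPS livers and 355 ± 7.40 CPM in control livers. Psme4, with the longest transcript of the 4 (6491 bases), weighs most in the control sum, so the sums do not compare numbers of transcripts.

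Psmf1, which encodes the protein PI31 that inhibits the core in vitro, rose. It had 36.3, 44.2 and 50.04 CPM in LPS livers, against 32.8, 25.9 and 29.5 CPM in control livers. The groups lay apart by a small gap, and the log2 fold change was 0.57 (SE 0.15, adjusted p = 0.003848).

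**Figure D4:**
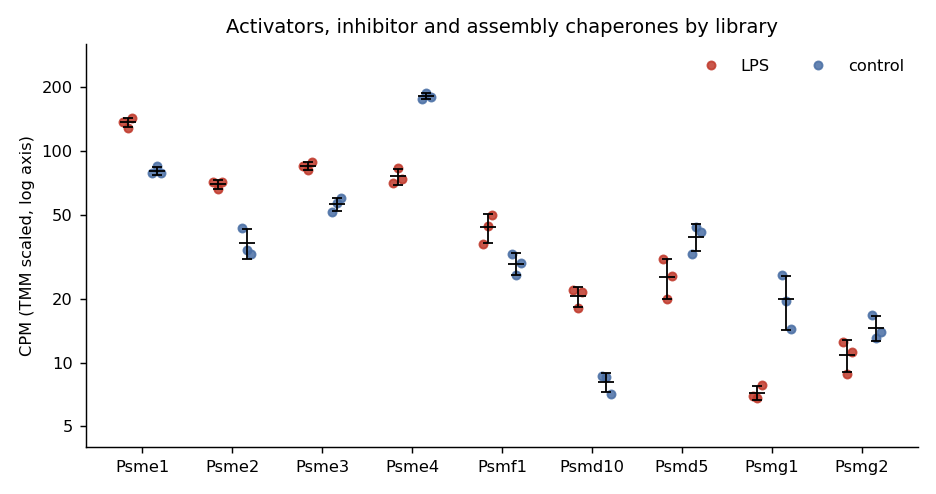
TMM-scaled CPM on a log axis for the 4 activators, the inhibitor Psmf1 and the assembly chaperones Psmd10, Psmd5, Psmg1 and Psmg2, with points for libraries and bars for mean ± SD (n = 3 per group). Psme1, Psme2, Psme3, Psmf1 and Psmd10 were higher in all LPS libraries than in any control library, and Psme4, Psmd5, Psmg1 and Psmg2 lower, of which Psmg2 (adjusted p = 0.06489, edgeR) did not pass the threshold.

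Assembly chaperones hold unfinished parts of the particle together and leave the finished complex. Psmd10 (gankyrin), a chaperone of the regulatory base that is also known as a liver oncoprotein, had 22.1, 18.1 and 21.5 CPM in LPS livers, against 8.66, 8.51 and 7.12 CPM in control livers. It rose 2.53-fold (log2 fold change 1.34, SE 0.17, adjusted p = 1.356e-05), with no overlap between groups. Psmd5, another chaperone of the base, had 30.8, 19.97 and 25.7 CPM in LPS livers, against 32.8, 43.8 and 41.6 CPM in control livers. It fell (log2 fold change -0.63, SE 0.17, adjusted p = 0.004664), although LPS replicate 1 lay close to control replicate 1. Psmd9, the remaining chaperone of the base, stood at -0.11 on the log2 scale and did not pass the threshold. Psmd5 overlaps Cutal and Psmd9 overlaps Hpd, in both cases on the opposite strand.

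Psmg1 pairs with Psmg2 to build the alpha ring. Psmg1 had 6.99, 6.82 and 7.84 CPM in LPS livers, against 25.9, 19.5 and 14.4 CPM in control livers. It had the largest fall of the members (log2 fold change -1.46, SE 0.22, adjusted p = 5.139e-05), and its control libraries varied more than its LPS libraries. For Psmg2 the log2 fold change was -0.43 (SE 0.19, adjusted p = 0.06489, edgeR), and it passed the threshold with library totals as the scaling (-0.49), without the filter (-0.46), with a replicate block (-0.43), without LPS replicate 1 (-0.56) or without control replicate 2 (-0.52). Psmg3 and Psmg4, which form another chaperone pair, had log2 fold changes of 0.20 and 0.27 and did not pass the threshold. Psmg4, with the highest fold change of the 4 and the lowest CPM, had 8.70, 5.98 and 5.85 CPM in LPS livers and 5.93, 5.55 and 5.45 CPM in control livers.

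The constitutive 26S particle comprises 31 of the tested members: 14 of the 20S core and 17 of the 19S regulatory particle. Of these 31, 3 rose, 6 fell and 22 did not pass the threshold, so that 29% passed in either direction beside 62.3% of all genes tested. For 28 of the 31 (90.3%) the fold change was within 1.5-fold, which held for 42.2% of all genes tested. The median log2 fold change was -0.15, with quartiles of -0.26 and 0.13, beside a median of 0.01 over all genes. Their summed level was 3394, 2894 and 3507 CPM in LPS livers and 3385, 3492 and 3421 CPM in control livers. LPS replicates 1 and 3 lay within or just above the control range, and LPS replicate 2 lay below it.

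LPS replicate 2 was the lowest of the LPS libraries for 28 of the 31 subunits, and the lowest of all 6 libraries for 20 of them. The same library had the highest summed endothelial markers of the LPS group (289.5 CPM, beside 190.0 and 214.1 CPM in the other LPS libraries and 220.8 to 251.1 CPM in control livers). It also had the highest summed pan-leukocyte markers (69.4 CPM, beside 56.7 and 62.0 CPM in the other LPS libraries and 36.8 to 46.2 CPM in control livers). Of the LPS libraries it was also the highest in summed neutrophil, monocyte, T and NK cell, B cell, dendritic cell, stellate cell and cholangiocyte markers. The stellate cell sum was highest there through Reln (80.4 CPM, beside 30.4 and 28.5 CPM), while Dcn was lowest there (154 CPM, beside 180 and 172 CPM). The monocyte sum was highest there through Chil3 (32.6 CPM, beside 21.6 and 19.4 CPM), while Plac8, Lyz2 and Fcgr4 were highest in LPS replicate 3. The B cell and dendritic cell sums were at most 2.67 and 3.24 CPM in LPS libraries. Summed Kupffer cell and hepatocyte markers were highest in LPS replicate 3. The part of any of these cells in the lower 26S levels was not tested. Without LPS replicate 2, 3 in place of 6 members fell by at least 1.5-fold, and the calls of Psmb3 (log2 fold change -0.26), Psmc6 (-0.34) and Psmd4 (-0.31) did not pass the threshold.

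**Figure D5:**
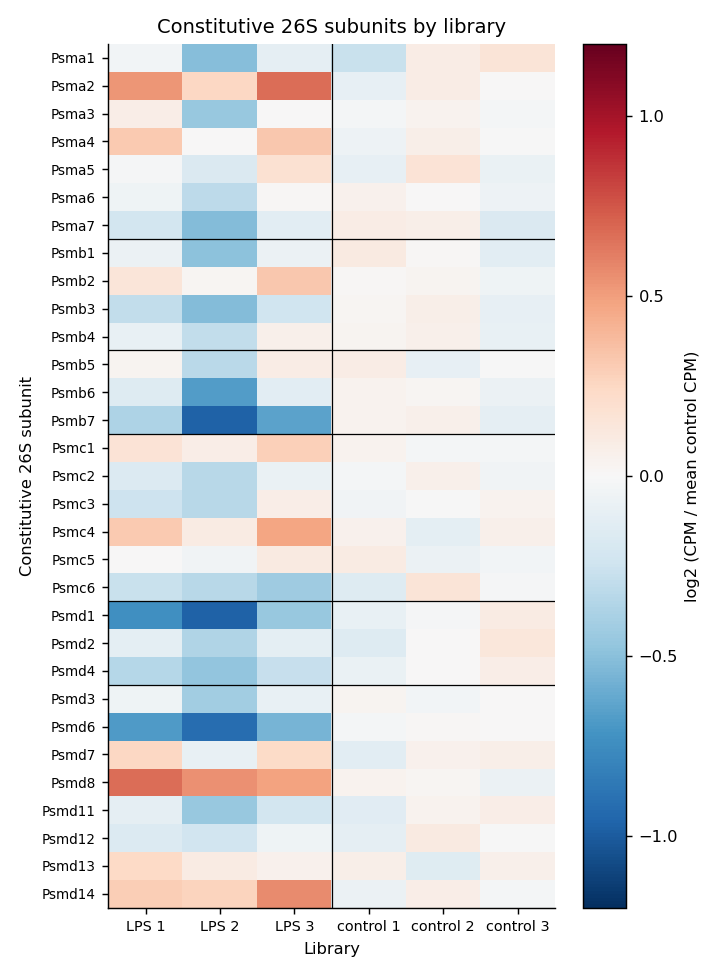
Log2 of the CPM over the mean control CPM for the 31 constitutive 26S subunits (down the page, with black lines between the role classes) in the 3 LPS and 3 control libraries. LPS replicate 2 is the lowest LPS column for 28 of the 31 subunits, Psma2 and Psmd8 are above the control mean in all LPS livers, and Psmb7, Psmd1 and Psmd6 are below it.

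In the alpha ring, whose 7 subunits form the gate of the barrel, Psma2 was the only member to pass the threshold. It had 109, 90.1 and 121 CPM in LPS livers, against 70.9, 80.5 and 76.1 CPM in control livers (log2 fold change 0.49, SE 0.13, adjusted p = 0.005389). The groups did not overlap, but Psma2 shares its locus with the overlapping gene AW209491 on the same strand. At the other end of the ring, Psma7 had 136, 110 and 145 CPM in LPS livers and 168, 165 and 140 CPM in control livers (log2 fold change -0.28, adjusted p = 0.09178, edgeR), with overlap. It passed the threshold with library totals (-0.35), without LPS replicate 3 (-0.35) or without control replicate 3 (-0.38). The 5 remaining alpha subunits had log2 fold changes of -0.21 to 0.22.

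Of the 4 beta subunits without an active site, Psmb3 fell. It had 86.6, 74.0 and 90.0 CPM in LPS livers, against 108, 111 and 99.1 CPM in control livers (log2 fold change -0.34, SE 0.12, adjusted p = 0.02552), a call that was also lost without control replicate 2 (-0.33). The highest log2 fold change of the 4 was that of Psmb2, which had 77.5, 71.5 and 88.0 CPM in LPS livers and 70.9, 72.0 and 67.8 CPM in control livers (log2 fold change 0.17, adjusted p = 0.2397, edgeR). The groups overlapped, as they did for Psmb1 (log2 fold change -0.20) and Psmb4 (-0.10).

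The base of the regulatory particle holds the ring of 6 ATPases that unfolds substrates and threads them into the core. Psmc6 fell, with 85.8, 82.3 and 77.0 CPM in LPS livers and 93.0, 115 and 102 CPM in control livers (log2 fold change -0.34, SE 0.12, adjusted p = 0.0271). Its call was lost without LPS replicate 2 (-0.34) or 3 (-0.29) or without control replicate 2 (-0.28). Psmc4 stood at the other end, with 143, 123 and 160 CPM in LPS livers and 120, 106 and 120 CPM in control livers (log2 fold change 0.30, adjusted p = 0.0561, edgeR). Its groups did not overlap, yet it passed the threshold only in the fit without LPS replicate 2 (0.40) and in that with a replicate block (0.30). The other 4 ATPases had log2 fold changes of -0.19 to 0.18, and the 6 summed to 663 ± 56.3 CPM in LPS livers and 663 ± 1.69 CPM in control livers.

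The non-ATPase subunits of the base recognise ubiquitin or act as scaffolds. Psmd1, a scaffold, fell: it had 73.9, 62.8 and 89.7 CPM in LPS livers, against 115, 121 and 132 CPM in control livers (log2 fold change -0.70, SE 0.14, adjusted p = 6.506e-04). Psmd4, an intrinsic ubiquitin receptor, also fell, with 154, 141 and 162 CPM in LPS livers and 185, 196 and 206 CPM in control livers (log2 fold change -0.36, adjusted p = 0.01614), a call that rests on LPS replicate 2 (-0.31 without it). Neither gene's groups overlapped. Psmd2, the other scaffold, had 183, 154 and 183 CPM in LPS livers and 178, 198 and 218 CPM in control livers, with overlap (log2 fold change -0.19, adjusted p = 0.2099, edgeR). Psmd1 overlaps other protein-coding genes on both strands (Htr2b and Gm21972). Further overlaps on the opposite strand are those of Psmc3 with Slc39a13, Psma4 with AY074887, Psmd13 with Sirt3, and Psme4, Psma6, Psma3, Psma5 and Psmd3 with a pseudogene or a noncoding gene. Psmg3 overlaps Gm26938 on the same strand.

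The lid cuts ubiquitin chains from substrates before they are degraded. Of its 8 subunits, 2 rose and 1 fell, beside 31.3% and 31% of all genes tested. Psmd8 rose, with 258, 238 and 227 CPM in LPS livers, against 167, 164 and 155 CPM in control livers (log2 fold change 0.57, SE 0.12, adjusted p = 7.67e-04). Psmd14, the deubiquitinating enzyme of the lid, also rose, with 60.6, 59.7 and 73.4 CPM in LPS livers and 47.3, 52.4 and 48.7 CPM in control livers (log2 fold change 0.38, SE 0.13, adjusted p = 0.01695), a call lost without LPS replicate 3 (0.29) or control replicate 3 (0.35). Psmd6 fell, with 56.97, 48.5 and 62.2 CPM in LPS livers and 89.9, 92.5 and 91.8 CPM in control livers (log2 fold change -0.71, SE 0.13, adjusted p = 2.352e-04). In these 3 genes the groups did not overlap. The other 5 lid subunits had log2 fold changes of -0.25 to 0.13 and did not pass the threshold, apart from Psmd11 with library totals (-0.32).

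Levels of different genes can be set beside each other only per transcript length. In control livers the 31 constitutive 26S subunits ran from 26.1 CPM per kb for Psma2 to 172.5 CPM per kb for Psma7, and Psmb4 (162.6), Psmd4 (147.0) and Psmb6 (141.2) were the next highest. The immune subunits were far below this range in control livers, at 6.77 CPM per kb for Psmb8, 6.25 for Psmb9 and 12.1 for Psmb10. In LPS livers Psmb10 reached 87.7 CPM per kb and Psmb8 39.0, within the range that the constitutive subunits had in control livers, and Psmb9 reached 18.7, below it. Transcript length was that of the principal transcript in the annotation, and the transcripts present in these livers were not determined.

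The remaining members, Psma8 of the testis and Psmb11 of the thymus, did not pass the filter. Psma8 had counts of 4, 16 and 6 in LPS livers and 6, 12 and 8 in control livers. Psmb11 had 2, 6 and 0 counts in LPS livers and no count in control livers, where 3 counts correspond to 0.148 to 0.239 CPM. Neither gave a comparison at this depth.

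Genes that work on the proteasome but fall outside the naming rule were read from the same fit. Of 20 partners, 4 rose and 9 fell, beside 31.3% and 31% of all genes tested. The median over the 20 was -0.15 on the log2 scale. Pomp, the maturation factor of the core that is known to favour immunoproteasome assembly, rose with 131, 119 and 120 CPM in LPS livers, against 92.2, 101 and 93.1 CPM in control livers (log2 fold change 0.37, adjusted p = 0.01284). Sem1, a small subunit of the lid (0.56), Txnl1, a thioredoxin-like protein bound to the particle (0.40), and Ufd1, a cofactor of the unfoldase Vcp (0.72), also rose on the log2 scale. Among the partners with the smallest adjusted p, the shuttle protein Ubqln4 (log2 fold change -1.10) and the adaptor Ecpas (-0.82) fell. Adrm1, a ubiquitin receptor of the base, fell by 0.41 on the log2 scale (SE 0.17, adjusted p = 0.04936), with overlapping groups. Its call was lost without LPS replicate 1 (-0.44) or 2 (-0.24) and without control replicate 1 (-0.32) or 3 (-0.40). Pomp (0.31 and 0.33) and Sem1 (0.36 and 0.44) lost theirs without LPS replicate 1 or control replicate 3, and Txnl1 (0.30) without LPS replicate 1.

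The transcription factor NRF1, encoded by Nfe2l1, is known to raise proteasome genes when the proteasome is inhibited. Nfe2l1 fell, with 95.9, 90.1 and 94.6 CPM in LPS livers, against 149, 156 and 159 CPM in control livers (log2 fold change -0.73, SE 0.11, adjusted p = 8.255e-05). Of 8 genes of this axis, 4 rose and 3 fell, beside 31.3% and 31% of all genes tested. The median over the 8 was 0.43 on the log2 scale. Those that rose were Syvn1, the ligase that turns NRF1 over (log2 fold change 2.59), Ddi2, the protease that cuts it (0.51), its relative Nfe2l2 (0.50) and the partner Maff (0.93), whose call was lost in 4 of the 6 fits that left out a library (0.65 to 0.91). Besides Nfe2l1, Ngly1, which removes its sugar chains (-0.86), and the partner Mafg (-0.76) fell.

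Of 22 genes listed for the interferon gamma route and peptide supply, 17 rose, beside 31.3% of all genes tested. The other 5 did not pass the threshold. The part of interferon gamma itself was not tested. The median over the 22 was 1.35 on the log2 scale, beside 0.01 over all genes. Tap1, the peptide transporter next to Psmb9, had 100, 90.9 and 124 CPM in LPS livers, against 18.1, 18.7 and 19.3 CPM in control livers (log2 fold change 2.49, SE 0.14, adjusted p = 5.095e-09). Irf1, a transcription factor that is known to drive Psmb8, Psmb9 and Psmb10, had a log2 fold change of 1.38, and Nlrc5, the activator of class I genes, 1.33. The 3 with the smallest adjusted p were the ubiquitin-like modifier Isg15 (log2 fold change 6.29), Tap1 and the loading factor Tapbp (2.13). The 5 that did not pass the threshold were Ifngr1, Ifngr2, Jak1, Jak2 and B2m, named after their values were seen.

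Blood cells carry immune subunits at rest, so markers of such cells are set beside them. The counts of markers that rose or fell, here and in the next paragraph, stand beside 31.3% and 31% of all genes tested. Summed neutrophil markers were 223.8 to 274.0 CPM in LPS livers and 5.61 to 8.71 CPM in control livers, and 10 of the 10 tested among 11 rose. Summed monocyte markers were 81.6 to 99.4 CPM in LPS livers and 45.0 to 60.6 CPM in control livers, and 4 of 6 tested rose, while Lyz2, the main part of the control sum, fell (log2 fold change -2.09). Summed pan-leukocyte markers were 56.7 to 69.4 CPM in LPS livers and 36.8 to 46.2 CPM in control livers, and 3 of 5 rose. The immune subunits themselves summed to 208.6, 182.7 and 219.9 CPM in LPS livers and 40.5, 29.8 and 35.6 CPM in control livers, a 5.77-fold difference. The neutrophil sum differed 37.3-fold, the monocyte sum 1.71-fold and the pan-leukocyte sum 1.5-fold.

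Markers of other cells moved in both directions. T and NK cell markers summed to 6.77 to 8.02 CPM in LPS livers and 2.72 to 4.76 CPM in control livers, and 1 of 3 tested among 9 rose. B cell markers summed to 1.43 to 2.67 CPM in LPS livers and 4.44 to 5.60 CPM in control livers, and 2 of 4 fell. Dendritic cell markers summed to 1.36 to 3.24 CPM in LPS livers and 4.48 to 4.68 CPM in control livers, and the 1 tested among 5 fell. Endothelial cell markers summed to 190.0 to 289.5 CPM in LPS livers and 220.8 to 251.1 CPM in control livers. Of these 7, Lyve1 (log2 fold change 1.66) and Cdh5 (1.26) rose, while Clec4g (-3.12), Kdr (-1.24) and Stab2 (-0.41) fell. Kupffer cell markers summed to 47.2 to 77.0 CPM in LPS livers and 198.7 to 214.7 CPM in control livers. Of 5 tested, 4 fell while Marco rose (log2 fold change 1.23). Cholangiocyte markers summed to 116.8 to 138.2 CPM in LPS livers and 19.4 to 32.3 CPM in control livers, a sum carried by Spp1, and of 4 tested 3 rose while Krt19 fell (log2 fold change -2.70). Stellate cell markers summed to 208.7 to 248.8 CPM in LPS livers and 223.4 to 238.0 CPM in control livers, mostly from Dcn and Reln, and 3 of 6 fell (Lrat, Col1a1 and Col1a2). Of the 8 hepatocyte markers, 6 fell, Tat rose (log2 fold change 1.39) and Apoa1 did not pass the threshold (-0.04). No gene of these lists lacked counts in a whole group. The part of these cells in the rise of the immune subunits was not tested.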

How the data were processed

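Whole liver RNA was extracted with Trizol, per the labels' protocols. Each table deposited by the authors holds the whole-number counts of 1 library per gene, not normalized, and 0 value columns were left unused. The submitters' processing notes name bcl2fastq 2.0, HISAT2, StringTie, DESeq2, limma and the build mm10, without roles. Not given in the sources used here are the counting tool, its annotation and strand setting, and the treatment of multiply mapped reads.

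Members were read by Entrez identifier and symbol, and positions taken from GENCODE on GRCm38. Genes were compared in R 4.3.3 with edgeR 4.0.16 (TMM, filterByExpr with minimum count 10, minimum total 15 and 3 samples, 2-sided quasi-likelihood F test). Benjamini-Hochberg adjustment ran over 12078 genes, with a threshold of 0.05 and a size rule of 1.5-fold. DESeq2 1.42.0, other scalings, no filter, a replicate block and leaving out each library were alternatives. The scripts were tested on simulated data. Libraries of 1 group differed by more than sampling noise (chi-square of 11.6 to 31.2 per degree of freedom). Same-numbered LPS and control libraries correlated at -0.000745, 0.104 and 0.0352 after group means were subtracted, so numbers were not used as pairs.

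Given library by library are the catalytic, activator and inhibitor genes and the members with the highest and lowest fold change of each role class, with others called in the test. Of the lists of partner genes, the 3 with the smallest adjusted p are named, all called ones where 5 or fewer were called in a direction, and Pomp, Nfe2l1, Adrm1, Irf1, Tap1 and Nlrc5. Some genes that meet this rule are left out, though list counts hold them. The members, lists, motifs and tests were chosen with earlier results of these data known.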

Additional observations from a re-analysis of the deposited data

How the results depend on the processing

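Of the values of tested members under the alternatives, 471 kept their direction and their side of the threshold, 8 lost a call, 14 gained one and 13 changed sign, all 13 in members near 0 that did not pass the threshold. The calls of Psmb8, Psmb9, Psmb10, Psme1 to Psme4, Psmd10 and Psmg1 held under every alternative. Members that rose numbered 10 to 12 with a library left out, and those that fell 6 to 10. At 1.5-fold or more, 6 to 9 rose and 3 to 6 fell with a library left out, the 3 without LPS replicate 2. Library totals as the scaling gave 11 that rose and 13 that fell, and moved the median of all genes by less than 0.1. No filter on low counts gave 11 and 11, and DESeq2 11 and 9. The fit with a replicate block gave 12 and 10, although the numbers are not stated to pair libraries. It added Psmc4 and Psmg2 to the calls. For the ratios the block cannot move the difference, by construction. The activators' median log2 fold change (0.68) was 0.61 with library totals, 0.64 without the filter and 0.64 to 0.72 with a library left out.

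Signs changed as follows on the log2 scale. With library totals Psma5 stood at -0.07, Psmc5 at -0.04 and Nsfl1c at -0.06, and without the filter at -0.03, -0.01 and -0.03. With a library left out, Psma5 ran from -0.08 to 0.09, Psmc5 from -0.03 to 0.08, Psma3 from -0.23 to 0.05, Psmb5 from -0.12 to 0.07, Nsfl1c from -0.08 to 0.05, Usp14 from -0.02 to 0.15 and Akirin2 from -0.02 to 0.31. The cause was not tested. With 3 libraries per group, exact permutation tests cannot go below p = 0.1, and Psma8 and Psmb11 were too low to compare at this depth.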

Other observations

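Ubiquitin is the tag that brings proteins to the proteasome. Ubb, a polyubiquitin gene, rose, with 512, 493 and 716 CPM in LPS livers, against 401, 365 and 393 CPM in control livers (log2 fold change 0.57, SE 0.15, adjusted p = 0.004929, edgeR). Its groups did not overlap. Rps27a, a fusion of ubiquitin and a ribosomal protein, also rose (log2 fold change 0.55). Of the activating enzymes, Uba6 fell (log2 fold change -1.10) and Uba1 did not pass the threshold (-0.15).

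Among the shuttle proteins and unfoldases that hand substrates to the proteasome, Vcp had 208, 196 and 231 CPM in LPS livers, against 262, 256 and 285 CPM in control livers (log2 fold change -0.34, adjusted p = 0.02716, edgeR). Its call was lost without LPS replicate 1 (-0.35) or 2 (-0.28) or without control replicate 3 (-0.31). Rad23b (log2 fold change -0.38) and Ubqln1 (-0.69) fell beside it, as did the deubiquitinating enzyme Uchl5 (-0.64) and the ligase Ube3c (-0.76). Usp14, another deubiquitinating enzyme of the particle, had a log2 fold change of 0.08 and did not pass the threshold.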
